A study of Mus musculus with 93 samples.

Results

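The nuclear genes of oxidative phosphorylation were followed through granulosa cells and oocytes of mice with and without estrogen receptor beta (gene Esr2), a nuclear receptor for estradiol. The genes were chosen by name: symbols beginning with Nduf, Uqcr, Atp5 or Cox4 to Cox8, the 4 Sdh subunit genes, Cyc1 and Cycs. Of 108 matching symbols, 11 names ending in -ps were left out, and a mean of at least 1 CPM (count per 1e+06 counts of the library) in any of the 12 groups was required. This left 95 of 24047 listed genes. They were 38 complex I subunit genes, 8 complex I assembly factors (Ndufaf genes), 4 genes of complex II, 9 of complex III, 18 of complex IV, 17 of complex V (ATP synthase) and Cycs. The genes just under the limit were Cox8c at 0.843 CPM and Ndufa11b at 0.704 CPM, and the lowest members were Atp5g2 at 1.85 CPM and Ndufs6b at 2.81 CPM. Ndufb4c and Ndufs6b, counted with complex I, and Cox6c2, counted with complex IV, are annotated as processed pseudogenes and were kept by the naming rule. Of the 95, 89 were listed in all 6 deposited count tables. Cox6a2 was not listed for granulosa cells, and Cox7a1 and Ndufaf1 were not listed for oocytes.

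The samples were 93 libraries of ovarian cells, made with Smart-seq2 (full-length cDNA amplified from little RNA): 42 of granulosa cells and 51 of oocytes. They came from wild-type mice and estrogen receptor beta knockout mice at 4 weeks, 7 weeks and 6 months. Wild-type granulosa cells had 7, 5 and 12 libraries in order of age, and knockout granulosa cells 7, 5 and 6. Wild-type oocytes had 12, 5 and 11 libraries, and knockout oocytes 7, 12 and 4. The labels name no animal, strain, hormone treatment or number of cells for a library, so a p-value here measures the spread between libraries, which may be technical in part. Each cell type and age came as 1 count table, so neither age nor cell type can be told apart from table, collection or handling. Of the 12 knockout oocyte columns at 7 weeks, 1 joins the numbers 4 and 5 in its name, and number 5 also has a column of its own, so these libraries may share material.

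Library totals ran from 702726 to 7751953 estimated counts. Esr2 was at 5.69 to 39.6 CPM in wild-type granulosa libraries and at 39.3 to 112 CPM in wild-type oocyte libraries, and no knockout library exceeded 0.598 CPM. Summed oocyte markers were at 10048 to 39333 CPM in oocyte libraries, and summed granulosa markers at 1863 to 6370 CPM in granulosa libraries and 43.6 to 418 CPM in oocyte libraries. The granulosa markers Amh, Fshr, Foxl2 and Inhbb were not listed in any oocyte table, and the sum there was mostly Cyp19a1 and Nr5a2. Granulosa libraries also held immune markers at 219 to 4547 CPM.

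Oxidative phosphorylation couples the transfer of electrons along complexes I to IV of the inner mitochondrial membrane to proton pumping, and complex V uses the resulting gradient to make ATP. Complex I takes electrons from NADH and complex II from succinate. Complex III passes them by way of cytochrome c to complex IV, which reduces oxygen. Each complex except II also holds subunits encoded in mitochondrial DNA, and none of the 13 mitochondrially encoded protein genes was in the tables, so only the nuclear share is described. Growing oocytes rely on mitochondrial respiration of pyruvate supplied by the surrounding granulosa cells, which are themselves strongly glycolytic.

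Promoters are shown for 5 members that separate the cell types: the paralogues Cox6b1 and Cox6b2, which had opposite cell-type preferences, and Ndufaf4, Uqcrc1 and Sdhb, which had wide contrasts or partners with the opposite order. Of the 95 members, 75 matched by symbol to a RefSeq window (build GRCm38.p6) of 250 bases before to 50 bases after the transcription start. The windows are given 5′ to 3′ on the gene's strand, in lower case, with capitals marking a match, on either strand, to the core of NRF1 (CATGCGC), GABP (CCGGAAG) or YY1 (AAGATGG), factors known as regulators of respiratory chain genes. Cox6b1 lies at chr7:30626065-30626364 on the minus strand, Cox6b2 at chr7:4753045-4753344 on the minus strand, Ndufaf4 at chr4:24897833-24898132 on the plus strand, Uqcrc1 at chr9:108936398-108936697 on the plus strand and Sdhb at chr4:140961021-140961320 on the plus strand.
Cox6b1: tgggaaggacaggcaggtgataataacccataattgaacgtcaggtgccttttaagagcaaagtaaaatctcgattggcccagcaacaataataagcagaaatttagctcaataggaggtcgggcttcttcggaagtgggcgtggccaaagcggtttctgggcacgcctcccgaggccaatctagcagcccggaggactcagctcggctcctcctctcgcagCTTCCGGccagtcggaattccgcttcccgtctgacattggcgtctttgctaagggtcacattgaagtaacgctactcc
Cox6b2: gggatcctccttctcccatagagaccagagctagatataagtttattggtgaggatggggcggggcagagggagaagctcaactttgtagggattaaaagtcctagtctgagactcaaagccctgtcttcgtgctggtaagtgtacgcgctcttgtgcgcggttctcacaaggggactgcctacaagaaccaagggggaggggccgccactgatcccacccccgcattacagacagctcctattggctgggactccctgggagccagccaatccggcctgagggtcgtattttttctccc
Ndufaf4: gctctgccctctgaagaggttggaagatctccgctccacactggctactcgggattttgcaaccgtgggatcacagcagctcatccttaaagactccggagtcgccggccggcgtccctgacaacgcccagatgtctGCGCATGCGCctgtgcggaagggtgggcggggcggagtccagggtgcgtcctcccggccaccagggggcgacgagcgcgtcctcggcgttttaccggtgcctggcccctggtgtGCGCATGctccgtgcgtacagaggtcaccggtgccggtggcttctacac
Uqcrc1: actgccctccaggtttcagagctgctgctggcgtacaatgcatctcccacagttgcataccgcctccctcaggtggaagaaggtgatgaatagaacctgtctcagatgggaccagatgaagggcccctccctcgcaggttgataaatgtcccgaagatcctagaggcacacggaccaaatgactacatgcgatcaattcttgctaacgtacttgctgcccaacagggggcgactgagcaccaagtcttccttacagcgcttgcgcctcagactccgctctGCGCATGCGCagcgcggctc
Sdhb: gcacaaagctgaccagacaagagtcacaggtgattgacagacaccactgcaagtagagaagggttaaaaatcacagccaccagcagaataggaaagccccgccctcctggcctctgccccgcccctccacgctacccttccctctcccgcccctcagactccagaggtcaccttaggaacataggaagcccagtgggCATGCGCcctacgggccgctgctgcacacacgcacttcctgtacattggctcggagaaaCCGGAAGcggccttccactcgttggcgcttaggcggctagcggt

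The Cox6b1 window held 1 GABP core and the Cox6b2 window none of these cores. Ndufaf4 had 3 NRF1 matches and Uqcrc1 had 2, of which neighbouring ones overlap on opposite strands, and Sdhb had 1 NRF1 and 1 GABP core. Over the 75 members, 21.3% held the NRF1 core, against 8.35% of the genes listed in all 6 tables and 4.41% of all genes with a window. The GABP core was in 25.3% of members against 21.8% of listed genes, and the YY1 core in 16.0% against 8.90%. The SP1 core (GGGCGG) was in 46.7% of members and 70.5% of listed genes. Any of the NRF1, GABP and YY1 cores was found in 50.7% of members and 34.3% of listed genes. A match is a description of letters, not of binding.

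Granulosa libraries devoted a larger share of their RNA to these genes than oocyte libraries. The summed level of the 95 members was 18252 ± 2742 CPM (SD, n = 7) in wild-type granulosa cells at 4 weeks and 4199 ± 545 CPM (SD, n = 12) in wild-type oocytes. At 7 weeks the sums were 19881 ± 4051 (SD, n = 5) and 3889 ± 590 CPM (SD, n = 5), and at 6 months 21108 ± 2150 (SD, n = 12) and 5624 ± 641 CPM (SD, n = 11). The ranges of the cell types did not overlap at any age. These are shares of each library: in bulk samples, fewer cells of a type and less RNA per cell cannot be told apart.

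Gene by gene, 77 of 88 tested members were higher in granulosa cells and 6 higher in oocytes at 4 weeks (edgeR quasi-likelihood test, Benjamini-Hochberg adjusted p under 0.05 over all genes). The background was 46.0% of 11795 genes higher in granulosa cells and 37.4% higher in oocytes. At 7 weeks the counts were 75 and 4 of 89 against 39.1% and 38.1% of 12114 genes, and at 6 months 76 and 10 of 91 against 43.3% and 41.9% of 11991 genes. The median member difference, as log2 granulosa over oocyte, was 3.23, 2.81 and 2.66 at the 3 ages, where the median of all genes was 0.35, 0.09 and 0.09. Scaling by total counts alone moved the all-gene medians to 0.81, 0.59 and 0.84 and the member medians to 3.70, 3.31 and 3.35, so the members stood above the other genes under either scaling. Of the 88 members tested at all ages, 70 were higher in granulosa cells at every age and 4 were higher in oocytes at every age. Those 4 were Ndufa10, Ndufaf2, Ndufaf4 and Cox6b2. Uqcrc2 and Sdha were higher in oocytes at 4 weeks and 6 months, and Ndufa4, Ndufab1, Ndufaf7 and Cox8a at 6 months. Cox8a depended on the scaling, at -0.56 with TMM scaling and 0.23 with total counts alone. Cox5a, at 0.45 at 4 weeks and 0.53 at 6 months, depended on the length trend: with it removed the values were -0.74 (adjusted p = 0.000137, edgeR, called in the opposite direction) and -0.17.

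The leading gene of a complex took a larger share of its total in oocytes than in granulosa cells. Levels per transcript length, computed as TPM, are used to compare genes, as means of the 3 wild-type groups of a cell type. In granulosa cells the leading gene of complex I, Ndufa7, held 6.71% of the complex I total, and in oocytes the leading gene, Ndufa10, held 30.2%. In complex III the leading gene held 19.2% in granulosa cells (Uqcr10) and 60.5% in oocytes (Uqcrc2). In complex V Atp5b, the catalytic beta subunit, led in both, with 26.2% in granulosa cells and 55.5% in oocytes. Sdhd, a membrane anchor of complex II, led that complex in granulosa cells with 38.0%, and Sdha, its flavoprotein, led in oocytes with 53.9%. In complex IV Cox8a held 24.8% in oocytes and Cox6a1 19.7% in granulosa cells. Complex I assembly factors were led by Ndufaf8 with 29.0% in granulosa cells and by Ndufaf4 with 39.7% in oocytes. Such a share depends on 1 gene and on the number of genes in the complex. The spread over the genes of a complex (SD of log2 TPM, granulosa and oocyte) was near equal for complex I (1.61 and 1.63) and V (2.26 and 2.10), and wider in oocytes for II (0.99 and 1.75), III (0.84 and 2.07), IV (1.98 and 2.56) and the assembly factors (1.00 and 2.29). Knockout oocytes had the same leading genes as wild-type oocytes, at 38.2% of complex I, 63.2% of II, 73.0% of III, 26.1% of IV, 64.5% of V and 41.4% of the assembly factors.

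**Figure D1:**
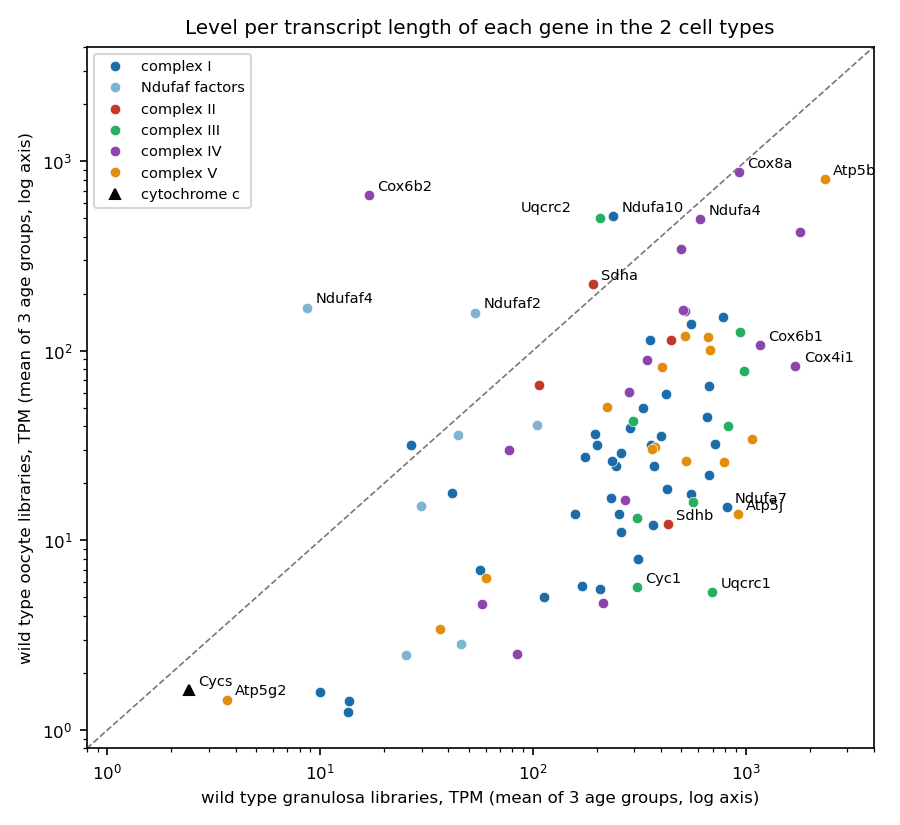
Mean level per transcript length (TPM, log axes) of each member in wild-type granulosa cells (x axis) against wild-type oocytes (y axis), colored by complex, with the diagonal marking equal levels. Most members lie on the granulosa side, while Cox6b2 (16.9 TPM in granulosa cells, 662 TPM in oocytes) and Ndufaf4 (8.69 and 169 TPM) lie on the oocyte side.

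Complex I showed the split between Ndufa10 and the rest. Ndufa10, an accessory subunit, was at 286, 302, 270, 263 and 263 CPM in the 5 wild-type granulosa libraries at 7 weeks and at 271, 421, 413, 426 and 421 CPM in the 5 oocyte libraries. The first oocyte library lay within the granulosa range and the other four above it. The log2 difference (granulosa over oocyte) was -1.55 ± 0.19 (SE, adjusted p = 1.88e-09) at 4 weeks, -0.97 at 7 weeks and -1.88 at 6 months by edgeR. Ndufa7, another accessory subunit, went the other way, at 816 TPM in granulosa cells and 15.0 TPM in oocytes. Its log2 differences were 6.39, 4.93 and 5.49. Of the accessory subunits, 27 of 29, 26 of 29 and 29 of 31 were higher in granulosa cells at 4 weeks, 7 weeks and 6 months.

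Ndufaf4, an assembly factor of complex I, had one of the largest contrasts toward oocytes. It was at 12.8, 10.6, 11.6, 13.8 and 23.6 CPM in 7-week wild-type granulosa libraries and at 212, 386, 196, 312 and 244 CPM in oocyte libraries, with no overlap. The log2 difference was -3.88, -4.65 and -5.14 at the 3 ages. Ndufaf2, a further assembly factor, was at 53.6 TPM in granulosa cells and 159 TPM in oocytes. Among the assembly factors, 4, 4 and 2 of 7 tested were higher in granulosa cells and 2, 2 and 3 higher in oocytes.

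Within complex II the subunits split. Sdhb, the iron-sulfur subunit, was at 250, 270, 247, 269 and 389 CPM in 7-week granulosa libraries and at 13.2, 15.9, 4.7, 12.6 and 6.33 CPM in oocyte libraries. Sdha, to which Sdhb docks, was at 322, 397, 381, 386 and 226 CPM in granulosa and at 122, 155, 295, 216 and 336 CPM in oocyte libraries, so the groups overlapped. For Sdhb the log2 difference was 5.60, 4.31 and 4.97, and for Sdha -0.82 (adjusted p = 0.0228, edgeR), 0.13 and -1.07. Per length, Sdhb stood at 431 TPM in granulosa cells and 12.2 TPM in oocytes, and Sdha at 191 and 225 TPM. Sdhd (447 and 114 TPM) and Sdhc (106 and 66.2 TPM), the membrane anchors, lay between them in oocytes.

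Complex III diverged widely within itself in oocytes. Uqcrc1 and Uqcrc2 encode the paired core proteins. In 7-week granulosa libraries Uqcrc1 was at 608, 767, 775, 843 and 629 CPM, and in oocyte libraries at 3.95, 16.9, 0, 4.61 and 5.76 CPM. Uqcrc2 was at 198, 260, 217, 209 and 221 CPM in granulosa and at 44.4, 354, 314, 225 and 335 CPM in oocyte libraries, of which the first lay below all others. The log2 difference of Uqcrc1 was 6.75 ± 0.74 (SE), 6.41 and 7.42, and that of Uqcrc2 -1.69, -0.66 (adjusted p = 0.0877, edgeR) and -2.32. Per length, Uqcrc1 was the lowest complex III gene of oocytes at 5.33 TPM and Uqcrc2 the highest at 499 TPM. In granulosa cells Uqcrc2 was the lowest at 207 TPM, below Uqcrc1 at 699 TPM. Cyc1, the cytochrome c1 heme protein, was at 309 TPM in granulosa cells and 5.68 TPM in oocytes.

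In complex IV the 2 genes for subunit 6B changed places. Cox6b1 was at 421, 336, 230, 264 and 695 CPM in 7-week granulosa libraries and at 19.8, 35.6, 22.2, 26.5 and 21.1 CPM in oocyte libraries. Cox6b2, known as the testis form, was at 5.69, 4.98, 6.54, 4.08 and 10.5 CPM in granulosa and at 134, 147, 104, 221 and 143 CPM in oocyte libraries. Neither gene overlapped between the cell types. The log2 difference was 3.53, 3.48 and 2.56 for Cox6b1 and -5.58, -4.96 and -6.23 for Cox6b2. Per length, Cox6b1 to Cox6b2 stood at 1165 to 16.9 TPM in granulosa cells and 107 to 662 TPM in oocytes.

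The order of the other isoforms was the same in both cell types where each was listed. Cox4i1 exceeded Cox4i2, its lung-enriched form, at 1717 against 83.8 TPM in granulosa cells and 83.1 against 2.52 TPM in oocytes. Cox6a1 was at 1803 TPM in granulosa cells and 422 TPM in oocytes, where Cox6a2, its heart and muscle form, was at 10.3 TPM. Cox7a2 was at 507 TPM in granulosa cells, above Cox7a2l at 282 TPM and Cox7a1 at 28.0 TPM, and in oocytes Cox7a2 was at 163 and Cox7a2l at 60.4 TPM. Ndufa4, now counted as a complex IV subunit, exceeded Ndufa4l2 at 613 against 215 TPM and at 497 against 4.69 TPM. Ndufa4l2 was not listed for oocytes at 4 weeks, so its oocyte mean covers the 7-week and 6-month groups alone. At 6 months it had no counts in 7 of 11 wild-type oocyte libraries. The 3 genes of the identical mature c subunit of ATP synthase were in the order Atp5g3, Atp5g1, Atp5g2 in both, at 1076, 36.5 and 3.64 TPM and at 34.1, 3.39 and 1.45 TPM. No test was made between genes.

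All 16 tested genes of complex V were higher in granulosa cells at 4 weeks and 6 months, and 15 of 16 at 7 weeks. Atp5b had the smallest shift at 4 weeks, with log2 differences of 1.10, 1.73 and 0.82. It stood at 2365 TPM in granulosa cells and 803 TPM in oocytes. Cycs, somatic cytochrome c, was at 2.43 TPM in granulosa cells and 1.62 TPM in oocytes, with log2 differences of 0.02 (adjusted p = 0.973, edgeR), 0.58 and -0.40, none of them past the test. Cycs, Atp5g2, Ndufb4, Cox7c and Atp5l have near-identical copies elsewhere in the genome, so reads may have been shared or lost and their levels are uncertain. The -ps entries left out also carried counts in granulosa cells, for example Cox5b-ps at 49.1 to 68.9 CPM beside Cox5b at 135 to 188 CPM in group means.

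**Figure D2:**
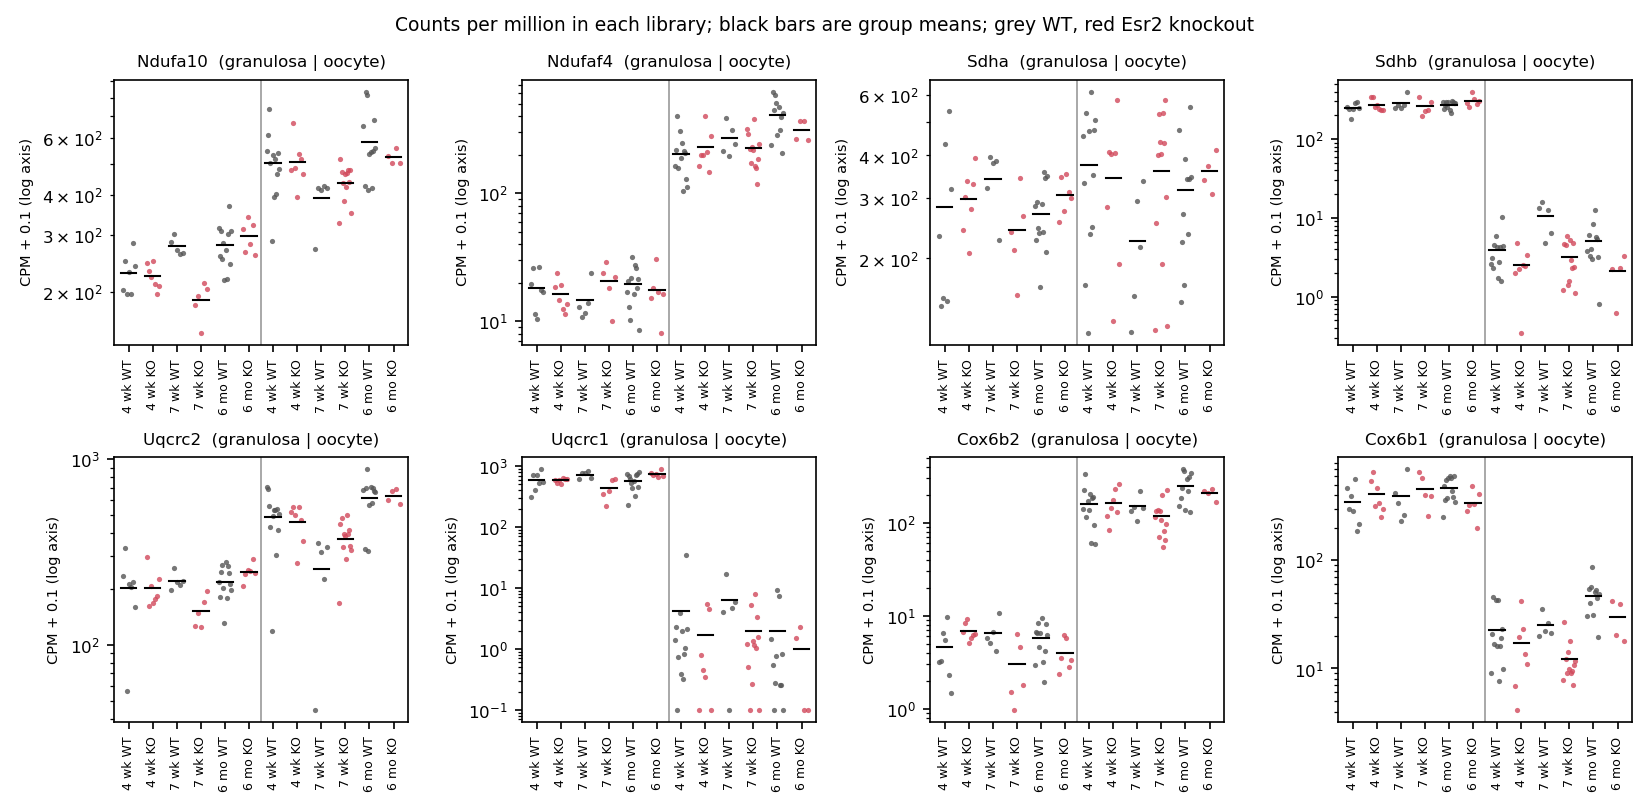
Level (CPM + 0.1, log axis) in each library for Ndufa10, Ndufaf4, Sdha, Sdhb, Uqcrc2, Uqcrc1, Cox6b2 and Cox6b1 across the 12 groups of cell type, genotype and age; points are libraries (grey wild type, red knockout) and black bars are group means. Uqcrc1, Sdhb and Cox6b1 sit high in granulosa cells, Ndufaf4 and Cox6b2 sit high in oocytes, in both genotypes.

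Related gene lists differed from one another in the same comparison. Of all genes, 46.0%, 39.1% and 43.3% were higher in granulosa cells at the 3 ages, and 37.4% were higher in oocytes at 4 weeks. Glycolysis genes were higher in granulosa cells in 14 of 16, 17 of 19 and 14 of 16 tested genes, with median log2 differences of 4.98, 4.69 and 4.45. Citrate cycle genes were mixed, with 8 higher in granulosa cells and 4 in oocytes of 17 at 4 weeks and a median of 0.35. Their share higher in granulosa cells and their median were near those of all genes. Among assembly factors outside the members, 29 of 40 were higher in granulosa cells and 3 in oocytes at 4 weeks. Cox10, which makes heme for complex IV, was one of those 3, at -5.44 ± 0.30 (SE). Among regulators of mitochondrial genes, Tfam, the mitochondrial DNA packaging factor, was higher in granulosa cells at 2.70 and Tfb1m higher in oocytes at -3.07.

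The level of these genes in oocytes differed with age, mainly between 6 months and the younger ages. In wild-type oocytes, 33 of 88 tested members were higher at 6 months than at 4 weeks and 1 was lower, against a background of 8.31% of 13471 genes higher and 7.10% lower (edgeR). The member median log2 difference was 0.68 and the all-gene median 0.03. By complex, 12 of 35 complex I subunits, 3 of 7 assembly factors, 2 of 4 in complex II, 4 of 9 in III, 9 of 16 in IV, 2 of 16 in V and Cycs were higher. Shorter transcripts had the larger differences: across members the Spearman correlation of the difference with transcript length was -0.42, and across all genes it was -0.38. With each library's length trend removed, 16 members were higher and 2 lower.

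Ndufa4 had the smallest p-value. Its level, in CPM scaled by TMM, was 39.4, 78.5 and 251 (lowest, median and highest of 12) at 4 weeks and 127, 275 and 443 (of 11) at 6 months. At 7 weeks the 5 libraries held 36.6, 32.9, 75.1, 60.8 and 51.2. All 11 of the 6-month libraries lay above the median of the 4-week libraries, though the ranges overlapped, and all 11 lay above every 7-week library. The log2 difference was 1.59 ± 0.28 (SE, adjusted p = 5.18e-05) against 4 weeks and 2.53 ± 0.41 (SE, adjusted p = 1.68e-05) against 7 weeks by edgeR.

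Among complex I subunits, Ndufa1, a small membrane-arm subunit, went from 3.99, 16.0 and 30.7 scaled CPM at 4 weeks to 24.8, 45.9 and 73.9 at 6 months. The difference was 1.55 ± 0.28 (SE, adjusted p = 5.55e-05, edgeR) on the log2 scale, and the ranges met only at their ends. Ndufb3, of the distal membrane arm, rose by 1.38 and Ndufab1, the mitochondrial acyl carrier protein, by 0.87. Ndufa11, from 4.06, 10.5 and 28.6 to 14.8, 28.7 and 45.4 scaled CPM, rose by 1.16 ± 0.30 (SE, adjusted p = 0.00462, edgeR). The assembly factor Ndufaf4 went from 117, 199 and 427 to 235, 448 and 684 scaled CPM, a rise of 1.03 ± 0.19 (SE, adjusted p = 5.87e-05, edgeR).

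In complex II the anchors rose. Sdhd went from 26.2, 55.0 and 66.4 scaled CPM at 4 weeks to 60.1, 86.3 and 220 at 6 months, a log2 rise of 1.11 ± 0.20 (SE, adjusted p = 5.43e-05, edgeR), and Sdhc rose by 0.52. In complex III Uqcrb rose by 1.74 ± 0.37 (SE, adjusted p = 0.000572, edgeR) from a low median of 1.81 scaled CPM to 5.85, and Uqcrh, the hinge protein, rose by 0.86. In complex IV both subunit 6B genes rose, Cox6b1 by 1.12 and Cox6b2 by 0.71, together with Cox7a2 by 1.13 and Cox6c by 1.25. In complex V, Atp5mpl, a small membrane subunit, rose by 1.65 ± 0.31 (SE, adjusted p = 0.000101, edgeR) and Atp5c1, the gamma subunit of the rotor, by 0.57. Atp5a1, the alpha subunit, was the member that fell. It went from 55.5, 157 and 185 scaled CPM to 53.4, 78.9 and 106, a log2 difference of -0.80 ± 0.21 (SE, adjusted p = 0.00458, edgeR).

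**Figure D3:**
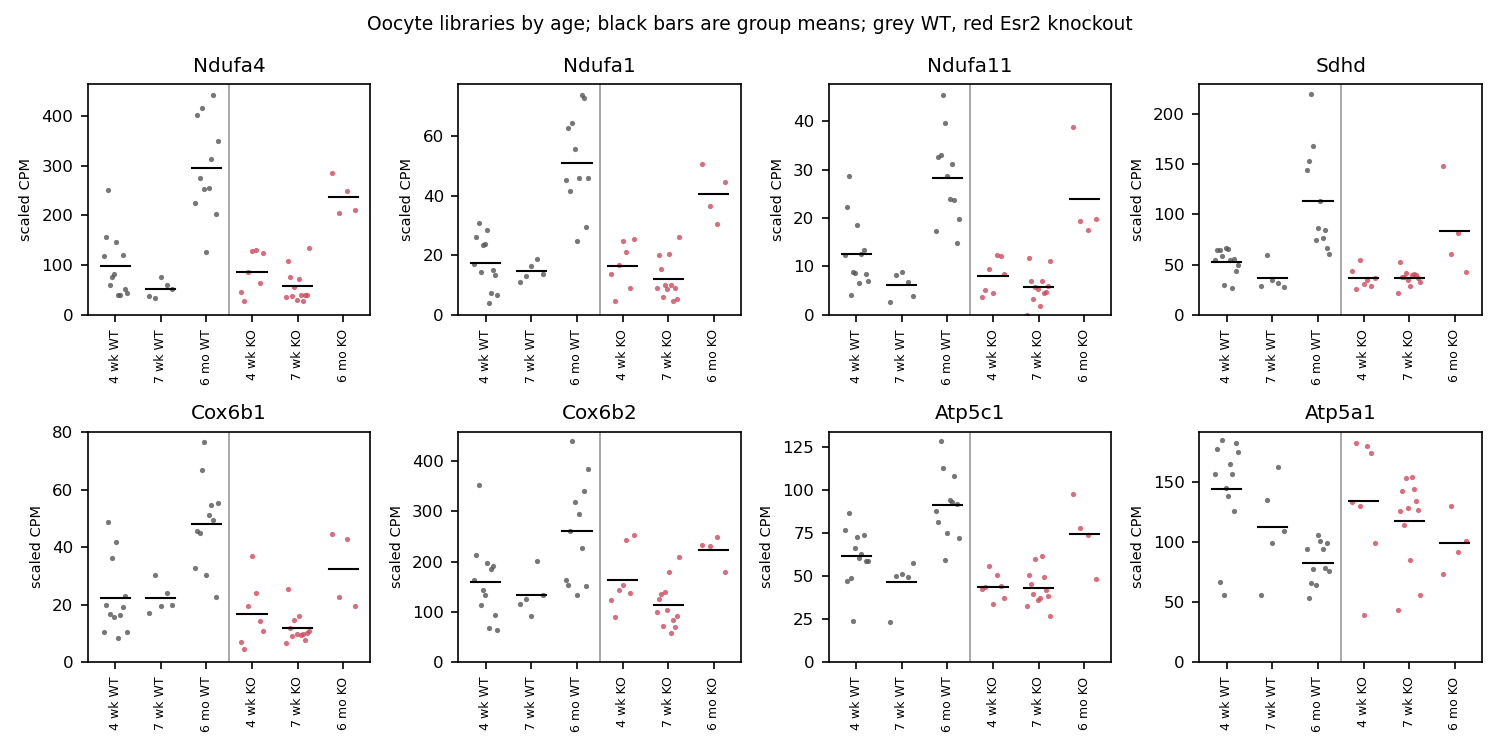
TMM-scaled CPM of 8 members in each oocyte library at 4 weeks, 7 weeks and 6 months, wild type (grey) on the left and knockout (red) on the right of each panel, with black bars at group means. The 6-month groups have the highest means for Ndufa4, Ndufa1, Ndufa11 and Sdhd in both genotypes, and lower than at 4 weeks for Atp5a1 in the wild type.

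Against 7 weeks, 19 of 88 members were higher at 6 months in wild-type oocytes and 2 were lower, with a background of 13.1% and 12.6% of genes and medians of 0.43 for members and 0.07 for all genes. With total counts alone the split was 11 higher and 5 lower, with medians of 0.23 for members and -0.16 for all genes. With the length trend removed it was 12 and 8, with a member median of -0.02. The lower members were Cox4i1 at -1.21 (adjusted p = 0.0103) and Ndufb7 at -1.63 (adjusted p = 0.0397) by edgeR. Uqcrc2 rose by 1.54 ± 0.33 (SE, adjusted p = 0.000517, edgeR), with a 7-week library at 38.1 scaled CPM as its lowest, and Ndufaf7 rose by 1.31. Of the members higher at 6 months, 14 were shared by both contrasts, which use the same 6-month libraries. Between 7 and 4 weeks no member passed the edgeR test in the wild type, against 0.824% of all genes in either direction, though 24 had an unadjusted p under 0.05 (23.0% of all genes did) and DESeq2 called 8. Without 7-week library 5, edgeR called 4, and without library 3 it called 1.

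Knockout oocytes gave fewer calls in the same direction. Of 88 members, 8 were higher at 6 months than at 7 weeks (background 3.33% higher and 2.47% lower) and 3 were higher than at 4 weeks (background 1.52% and 0.750%), and none was lower. Ndufa4 was at 27.2, 39.5 and 133 scaled CPM (lowest, median and highest of 12) at 7 weeks and at 284, 205, 249 and 212 in the 4 libraries at 6 months, without overlap. The log2 difference was 2.04 ± 0.35 (SE, adjusted p = 0.000243, edgeR). Ndufa11 rose by 2.05, Ndufa1 by 1.75, Cox6b1 by 1.45, Sdhd by 1.17, Cox6b2 by 0.97, Atp5c1 by 0.78 and Ndufab1 by 0.74. Leaving out 1 knockout library of 6 months gave 3 to 10 calls, with 3 without library 1 and 4 without library 3. All 8 were also called in the wild type for the same ages. Against 4 weeks the calls were Ndufa11 at 1.58 (adjusted p = 0.0346), Ndufa4 at 1.45 (adjusted p = 0.0384) and Sdhd at 1.20 (adjusted p = 0.016, edgeR). These calls against 4 weeks fell to 0 without knockout library 1 of 6 months and to 1 without library 2 or library 3. The 33 members higher at 6 months than at 4 weeks in the wild type all had a log2 difference above 0 in the knockout, with a median of 0.76. The difference between the genotypes' age effects passed the test for no member (0% of all genes at 6 months and 0% at 7 weeks, against 4 weeks). No member was called between knockout oocytes of 7 and 4 weeks (background 0.0223%), where 1 had an unadjusted p under 0.05 by edgeR (8.12% of all genes).

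In wild-type oocytes the summed granulosa markers were at 43.6, 82.3 and 171 CPM (lowest, median and highest) at 6 months. At 4 weeks they were at 57.5, 108 and 274 CPM. Their part in the age differences was not tested. Other lists in the same wild-type contrast of 6 months against 4 weeks were as follows, where 8.31% of all genes were higher and 7.10% lower. Genes named Rpl or Rps, which besides ribosomal proteins take in some kinases, were higher in 16 of 55 tested, with a median of 0.54. Citrate cycle genes were called in 0 of 17. Assembly factors outside the members were higher in 3 of 36, near the share of all genes. Sdhaf4, which assists Sdha, led them at 1.45 ± 0.22 (SE, adjusted p = 3.96e-06, edgeR). Mitochondrial ribosome genes were higher in 3 of 16, led by Mrps31 at 1.65.

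In granulosa cells the age differences were smaller. In the wild type 10 of 93 members were higher and 1 lower at 6 months than at 4 weeks (background 3.17% and 4.82% of 14307 genes), with a member median of 0.27 and an all-gene median of -0.03. Total counts alone gave 4 higher and 1 lower, and removal of the length trend 3 and 1. Without 4-week library 6, in which oocyte markers summed to 699 CPM, 4 members were called. Ndufs8, a core complex I subunit, was at 107, 175 and 187 scaled CPM (lowest, median and highest of 7) at 4 weeks and at 202, 252 and 325 (of 12) at 6 months, with no overlap. It rose by 0.63 ± 0.15 on the log2 scale (SE, adjusted p = 0.00558, edgeR). Ndufa11, Ndufb6, Ndufa12 and Ndufs4 rose by 0.69, 0.69, 0.57 and 0.51. Cox8a, Cox5b and Cox5a rose by 0.68, 0.56 and 0.55, and Atp5g1 and Atp5o by 0.76 and 0.56. Ndufa4l2, a hypoxia-inducible relative of Ndufa4, was the 1 that fell. It went from 65.0, 111 and 245 to 42.4, 72.5 and 140 scaled CPM, a log2 difference of -0.92 ± 0.28 (SE, adjusted p = 0.036, edgeR). Immune markers ran from 381 to 1973 CPM at 4 weeks and from 243 to 4547 CPM at 6 months in these libraries, and their part in these differences was not tested. No member was called between 7 and 4 weeks (background 0%) or between 6 months and 7 weeks (background 1.36%) in the wild type, and 3 and 4 had an unadjusted p under 0.05 by edgeR (9.48% and 13.9% of all genes).

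In knockout granulosa cells 14 of 93 members were higher at 6 months than at 7 weeks and none lower (background 10.0% higher and 12.0% lower). At an unadjusted p under 0.05 by edgeR there were 21 of 93 members, a smaller share than the 36.4% of all genes. The member median was 0.11 and the all-gene median -0.05. Total counts alone gave 9 higher and 1 lower, with medians of -0.16 and -0.30, and removal of the length trend gave 7 higher and 2 lower, with a member median of -0.14. Atp5b was at 795, 1063, 1228, 2340 and 2051 scaled CPM in the 5 libraries at 7 weeks and at 2459, 3664 and 4219 (lowest, median and highest of 6) at 6 months. The groups did not overlap, and the log2 rise was 1.23 ± 0.30 (SE, adjusted p = 0.00482, edgeR). Ndufa10 was at 164, 182, 134, 214 and 188 scaled CPM at 7 weeks and at 266, 347 and 386 at 6 months, a rise of 0.92 ± 0.18 (SE, adjusted p = 0.000794, edgeR). Cyc1 rose by 1.09, Uqcrc1 by 1.05, Uqcrc2 by 0.95, Atp5a1 by 0.88, Ndufa9 by 0.87, Sdhd by 0.64 and Sdhb by 0.51. In complex IV 0 of 17 tested genes were called. Without knockout library 3 of 7 weeks, 9 members were called. Citrate cycle genes were higher in 9 of 17 and glycolysis genes in 11 of 20 in the same contrast, among them Mdh2 at 1.21 and Ldha at 1.08.

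Between 6 months and 4 weeks in the knockout, 8 of 93 members were higher and none lower (background 6.58% and 7.19%). The share higher was near that of all genes. At an unadjusted p under 0.05 by edgeR there were 20 of 93 members, a smaller share than the 29.0% of all genes. Atp5pb rose by 0.71 ± 0.17 (SE, adjusted p = 0.00437) and Ndufa10 by 0.65 ± 0.16 (SE, adjusted p = 0.00465, edgeR), each without overlap between the groups. Cycs rose by 1.78 from 0, 2.08 and 3.94 scaled CPM to 4.75, 6.43 and 8.84. Of the 8, 4 were also among the 14 against 7 weeks, which share the 6-month libraries, and 1 was also higher in the wild type. DESeq2 called 13. Total counts alone gave 3 higher and 1 lower, and removal of the length trend 6 and 2. No member was called between 7 and 4 weeks in the knockout (background 0.0419%), where 3 had an unadjusted p under 0.05 by edgeR (8.51% of all genes).

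The central comparison of the study, knockout against wild type within a cell type and age, called 1 member in 6 comparisons. In granulosa cells 0 of 90 members were called at 4 weeks (background 2.33%), 0 of 92 at 7 weeks (0.800%) and 1 of 92, a lower one, at 6 months (6.59% higher and 6.05% lower). In oocytes 0 of 77 at 4 weeks (0.00924%), 0 of 82 at 7 weeks (0.154%) and 0 of 87 at 6 months (0.00818%) were called. At an unadjusted p under 0.05 the counts were 1, 7 and 19 in granulosa cells, where 10.5%, 18.6% and 31.3% of all genes were under it, and 5, 36 and 24 in oocytes, where 3.24%, 16.8% and 3.24% were.

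The called member was Atp5md, a small membrane subunit of ATP synthase. It was at 30.4, 55.3 and 108 scaled CPM (lowest, median and highest of 12) in wild-type granulosa cells at 6 months and at 22.3, 29.7 and 49.6 (of 6) in the knockout. The log2 difference, knockout over wild type, was -0.76 ± 0.24 (SE, adjusted p = 0.0433, edgeR), and the median of the wild type exceeded all 6 knockout values. It has no length in the annotation and so was not tested with the length trend removed, where no other member was called. In the same comparison Cox6c2, annotated as a processed pseudogene, was at -1.07 (adjusted p = 0.0623) and Atp5pb at 0.32 (adjusted p = 0.0651, edgeR). Of 17 genes of complex IV, 15 had values below 0, while all 4 of complex II had values above 0. Over members these differences rose with transcript length (Spearman 0.61). Complex IV transcripts ran from 231 to 1076 bases and those of complex II from 1142 to 3171 bases. The part of length in this split was not tested. At 4 weeks Ndufa4l2 was at 51.0, 65.2 and 97.4 scaled CPM in the 7 knockout granulosa libraries and at 66.5, 124 and 253 in the 7 wild-type libraries. Its log2 difference was -1.13 ± 0.32 (SE) with an adjusted p of 0.0675 by edgeR. Without wild-type library 6, in which oocyte markers summed to 699 CPM, 1 member was called at 4 weeks.

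At 7 weeks the order of the granulosa members differed from that at 6 months. Ndufa10 was at 255 to 348 scaled CPM in the 5 wild-type libraries and at 145 to 219 in the 5 knockout libraries, without overlap, and its log2 difference of -0.63 ± 0.20 (SE) did not pass the test (adjusted p = 0.141, edgeR). Uqcrc2 was at 200, 300, 228, 210 and 214 scaled CPM in the wild type and at 123, 146, 120, 173 and 186 in the knockout, also without overlap, at -0.62 (adjusted p = 0.172, edgeR). Uqcrc1 was at -0.82, Atp5b at -0.78 and Sdha at -0.58. At 6 months Atp5b was at 0.38 and Cyc1 at 0.43, neither called. The change of the knockout difference between ages was called for 0 members in granulosa cells (background 0.00699% for 7 weeks and 0.657% for 6 months, each against 4 weeks).

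**Figure D4:**
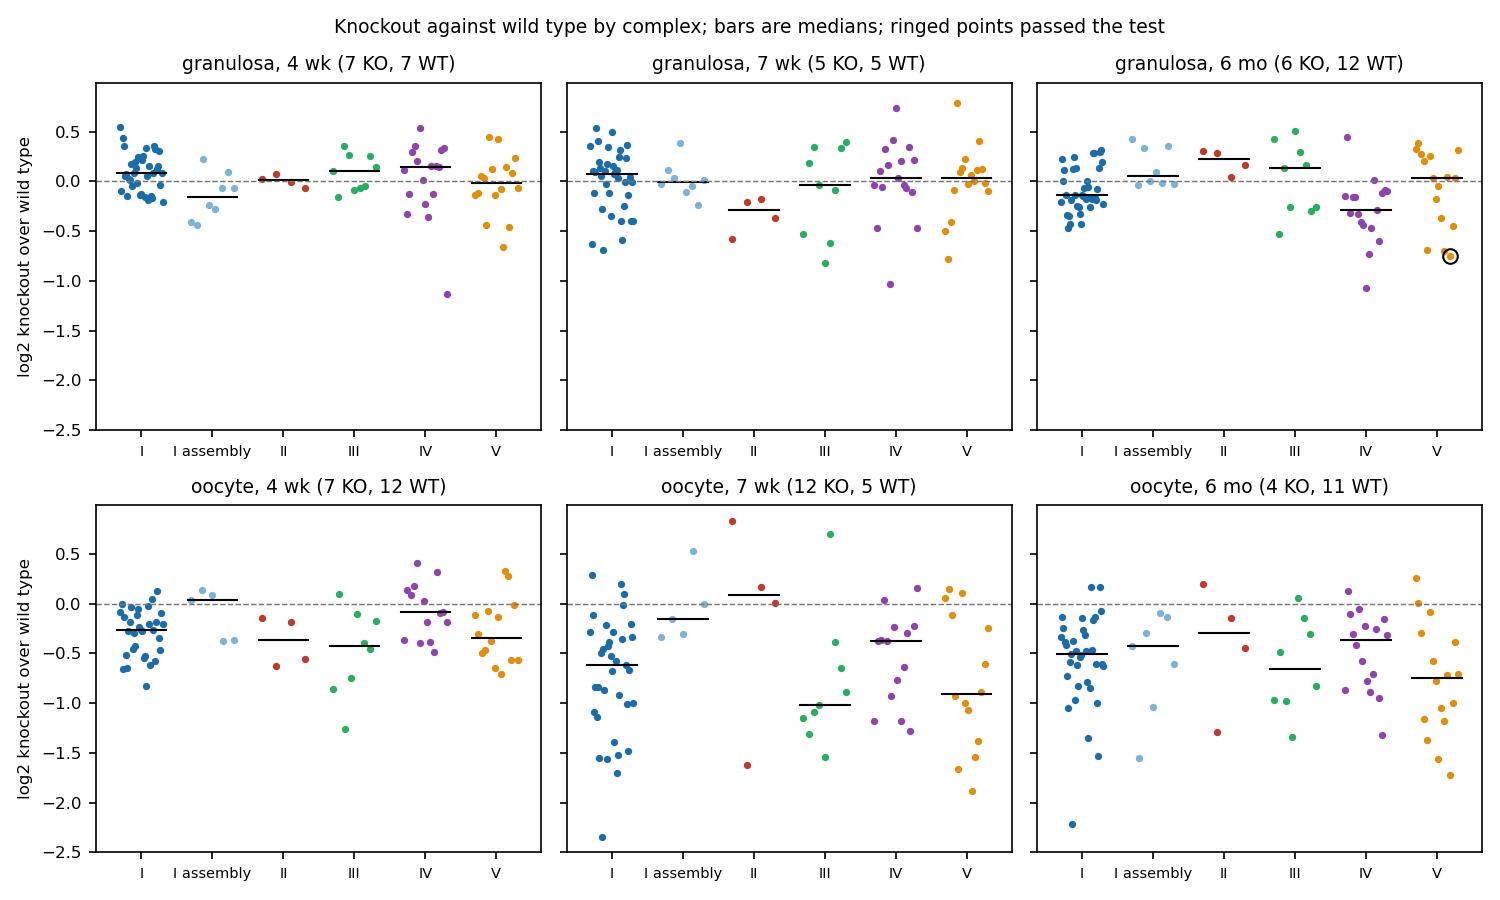
Log2 difference, knockout over wild type, of each tested member by complex in the 6 comparisons; points are genes, bars are medians and the ringed point is the 1 called gene, Atp5md. Points of the 3 oocyte comparisons lie mostly below 0, with medians of -0.23, -0.59 and -0.51.

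In oocytes most members had values below 0 without passing the test. At 4 weeks 63 of 77 were below 0 with a median of -0.23, at 7 weeks 68 of 82 with a median of -0.59, and at 6 months 79 of 87 with a median of -0.51, where the all-gene medians were -0.02, -0.01 and -0.05. The members are not independent of one another, and the knockout and wild-type ranges overlapped for each gene named here. The smallest adjusted p was 0.0665, for Ndufa7 at 7 weeks. It was at 2.93, 13.7, 1.21, 3.61 and 5.76 scaled CPM in the 5 wild-type libraries and at 0.177, 0.866 and 2.33 (lowest, median and highest of 12) in the knockout, with a log2 difference of -2.34 ± 0.52 (SE, edgeR). Ndufb9 was at -1.70, Sdhb at -1.62, Atp5j at -1.88 and Cox4i1 at -1.18. By complex the 7-week medians were -0.62 for complex I, -1.02 for III, -0.38 for IV and -0.91 for V.

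Several of these genes are among those far higher in granulosa cells. The summed granulosa markers at 7 weeks were 82.0, 92.2 and 418 CPM (lowest, median and highest) in wild-type oocytes and 46.3, 90.7 and 191 CPM in the knockout. The highest sum was in 1 wild-type library. The part of granulosa RNA in the knockout differences was not tested, and the marker sum in oocytes was mostly Cyp19a1 and Nr5a2. Without wild-type library 2, which held the sum of 418 CPM, the 7-week member median was -0.51. Without wild-type library 3, 3 members were called. The sample numbers deviated together in this comparison (correlations of 0.118 to 0.543 over 4 shared numbers). With the number as a block 0 members were called and the median was -0.23. That fit used only the libraries of the 4 shared numbers, so the block and the smaller set of libraries cannot be told apart.

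In several contrasts the members were ordered by transcript length in a direction opposite to that over all genes. In granulosa cells the Spearman correlation of the log2 difference with transcript length was taken for knockout over wild type. At 7 weeks it was -0.55 over 90 members and 0.38 over all genes. At 6 months it was 0.61 over 90 members and -0.26 over all genes. For knockout granulosa cells at 6 months against 7 weeks it was 0.64 over 91 members and -0.37 over all genes. The 13 called members with a length in that contrast spanned 1005 to 2471 bases, and the median length of the tested members was 865 bases. Opposite signs were also found for knockout granulosa cells at 6 months and 7 weeks against 4 weeks (0.51 and -0.31, -0.32 and 0.20), for wild-type oocytes at 7 weeks against 4 weeks (-0.34 and 0.22) and for knockout over wild-type oocytes at 7 weeks (0.42 and -0.08). Wild-type granulosa cells at 7 weeks against 4 weeks (0.10 and -0.30) and at 6 months against 7 weeks (-0.45 and 0.03) also had opposite signs. The sign did not differ for knockout over wild-type granulosa cells at 4 weeks (-0.13 over members and -0.08 over all genes). It also did not differ for wild-type granulosa cells at 6 months against 4 weeks (-0.16 and -0.22). Signs were the same for knockout over wild-type oocytes at 4 weeks (0.06 and 0.19) and 6 months (0.37 and 0.12). The same held between cell types at each age, and for oocytes of either genotype at 6 months against each younger age. Genes share libraries and depth here, so these correlations are descriptions across genes. Over all genes, the correlation of a library's log2 CPM with log2 transcript length also differed between groups. Its median was -0.071 in wild-type and -0.0185 in knockout granulosa libraries at 7 weeks, and -0.0827 and -0.135 at 6 months. With each library's trend removed, 0, 0 and 9 members were called in the first 3 contrasts named, against 0, 1 and 14 without the removal.

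**Figure D5:**
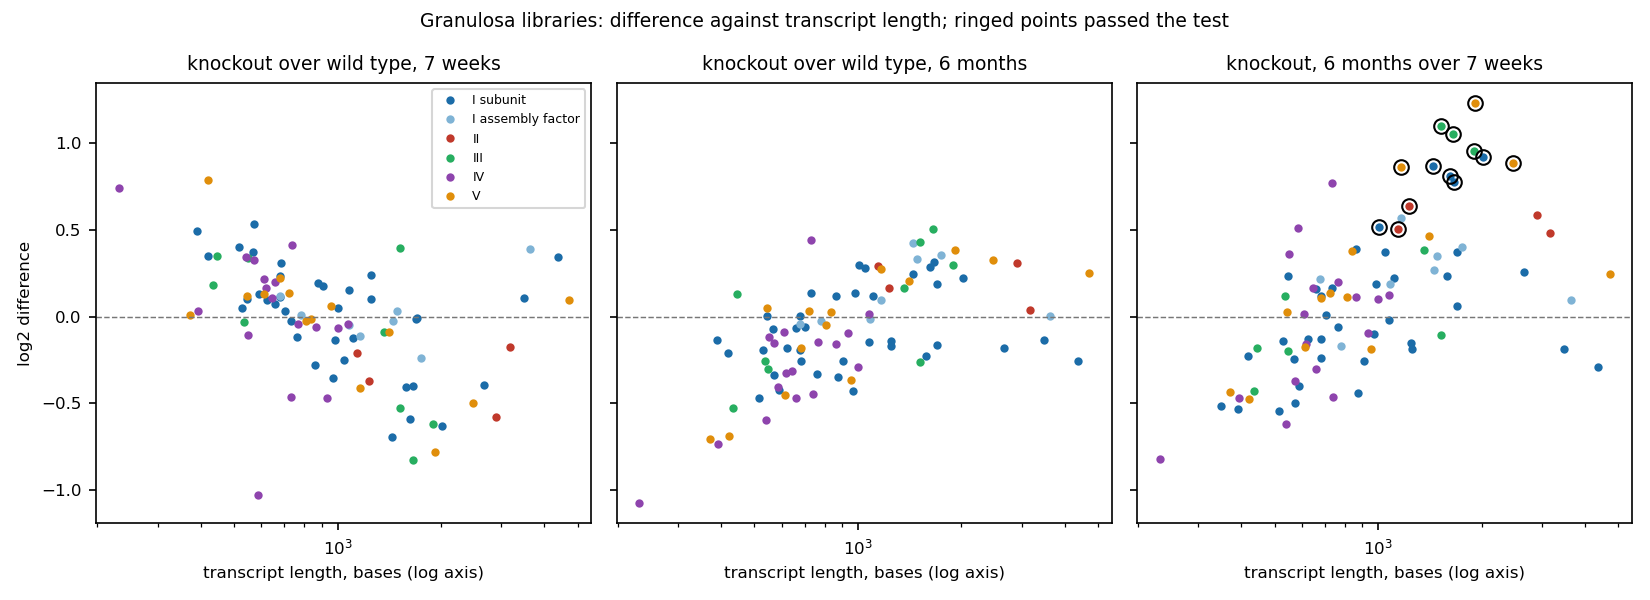
Log2 difference of each granulosa member against transcript length (bases, log axis) for knockout over wild type at 7 weeks, knockout over wild type at 6 months, and knockout at 6 months over 7 weeks; ringed points are called genes. The slope falls in the first panel (Spearman -0.55) and rises in the other two (0.61 and 0.64).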

How the data were processed

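Granulosa cells and oocytes of wild-type and estrogen receptor beta knockout mice were profiled by Smart-seq2, per the labels' protocols. The deposited tables hold estimated counts per gene that are not whole numbers, 1 table per cell type and age. STAR, Partek, DESeq2 and the build mm10 are named in the submitters' processing notes, without versions. The gene annotation is not given in the sources used here. The authors' normalised tables were not used. All columns matched a sample label (0 unmapped), except that 1 knockout oocyte column at 7 weeks joins 2 sample numbers, 1 of which also has its own column, and was used as an unnumbered library.

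Estimated counts were rounded to whole numbers and tested with edgeR 4.0.16 in R 4.3.3 (quasi-likelihood F test with robust estimation, filterByExpr, TMM scaling), and p-values were adjusted by Benjamini-Hochberg over all genes tested, with a threshold of 0.05. Knockout was compared with wild type within a table. Ages and cell types were compared in joint fits over the genes listed in the tables concerned, so a gene not listed in 1 of them was not tested. "Rose", "fell", "higher" and "lower" are used of genes past this threshold, or of plain levels where no test is meant. CPM is a rounded count divided by the library total and scaled to 1e+06, scaled CPM is the same after TMM, and TPM was computed here from the counts with GENCODE vM21 transcript lengths, which 93 of 95 members have (not Atp5md and Atp5pb). Sums are CPM over listed members.

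Genes were named by rule: up to 3 members per complex and direction with the smallest p among those called, isoform pairs, the highest and lowest per length of each complex, Sdh genes, Cyc1, Cycs and those next to the CPM limit. A few uncalled members (such as Ndufa10 at 7 weeks, Atp5b, Uqcrc1 and Ndufa7 in knockout comparisons) were chosen after their values were seen. The members and gene lists were chosen with earlier results of these data known. Sample numbers were tested for pairing by the correlation of same-numbered libraries' deviations. They paired in the oocyte 7-week knockout comparison alone, at 0.118 to 0.543 for the 4 shared numbers.

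On simulated counts, 4-fold changes were recovered in 93.8% of cases in the granulosa 4-week design, 87.8% in the oocyte 4-week design and 67.7% in the oocyte 6-month design, and 2-fold changes in 24.2%, 47.4% and 21.4%. Of these edgeR calls, 3.39%, 3.65% and 5.38% were false. DESeq2 recovered more of the 2-fold changes (35.8%, 57.7% and 35.7%), but 10.6%, 14.5% and 13.5% of its calls were false. Alternatives were other scalings, no filter on low counts, removal of each library's trend with transcript length (of the principal transcript, or of the exon union as an addition), DESeq2 1.42.0, the sample number as a block and leaving out libraries. Replicates were not pooled. No 2 libraries held identical values. Some results are not reported here.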

Additional observations from a re-analysis of the deposited data

Results flagged for a closer look

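Of 120 sets of values examined (summed levels by complex and 8 leading genes, in groups of 4 to 10 libraries), 7 had 1 library far from the rest of its group, where chance gives about 1 in 20. Library 5 of the wild-type granulosa cells at 7 weeks accounted for 4. Its complex I subunits summed to 9341 CPM (next highest 5764), its complex IV genes to 5614 CPM (next 3153) and all members to 26979 CPM (next 19424), and Ndufaf4 was at 23.6 CPM (next 13.8). The same library held immune markers at 2926 CPM and oocyte markers at 254 CPM, whose part was not tested. In knockout granulosa cells at 6 months, library 3 had a complex I sum of 7671 CPM (next 5944). In wild-type oocytes at 7 weeks, Ndufa10 was at 271 CPM in library 1, below the next value of 413 CPM, and Sdhd was at 70.5 CPM in library 2, above the next value of 39.3 CPM. Library 2 also held granulosa markers at 418 CPM, whose part was not tested.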

How the results depend on the processing

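Without TMM scaling (total counts alone) the count was 2 in place of 1 for knockout against wild type in granulosa cells at 6 months, and 1 in place of 0 in oocytes at 7 weeks. It was 5 in place of 11 for wild-type granulosa cells at 6 months against 4 weeks, 4 in place of 8 for the knockout, and 1 in place of 3 for knockout oocytes of the same ages. With the length trend removed the knockout counts were 1 in place of 0 in granulosa cells at 4 weeks and 0 in place of 1 at 6 months, where the called gene had no length. Across ages they were 4 in place of 11 in wild-type granulosa cells at 6 months against 4 weeks, 9 in place of 14 in the knockout at 6 months against 7 weeks, 18 in place of 34 in wild-type oocytes at 6 months against 4 weeks, 0 in place of 3 in the knockout, 5 in place of 8 in knockout oocytes at 6 months against 7 weeks, and 3 in place of 0 in wild-type oocytes at 7 weeks against 4 weeks. Lengths were those of the principal transcript. The union of a gene's exons was used first and replaced because it overstates some transcripts, and it is kept as an alternative added after seeing the data. It gave 22 in place of 18 for wild-type oocytes at 6 months against 4 weeks, 2 in place of 3 at 7 weeks against 4 weeks, and 1 in place of 0 for the knockout comparison of oocytes at 7 weeks. For the knockout comparisons of granulosa cells at 4 weeks and 6 months, the wild-type granulosa contrast of 6 months with 4 weeks and both knockout oocyte contrasts it gave the same counts as the principal transcript (1, 0, 4, 5 and 0).

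DESeq2 called 1, 1 and 3 members for knockout against wild type in granulosa cells at 4 weeks, 7 weeks and 6 months, and 6 in oocytes at 7 weeks. It called 13 in knockout granulosa cells at 6 months against 4 weeks, 8 in wild-type oocytes at 7 weeks against 4 weeks, and 18 and 5 in knockout oocytes at 6 months against 7 and 4 weeks. On the simulated counts 10.6%, 14.5% and 13.5% of DESeq2 calls were false in the 3 designs, more than for edgeR. Other size factors and no filter on low counts kept every count within 1.5 times.

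With granulosa over oocyte as the direction, Cox5a went from 0.45 to -0.74 at 4 weeks (adjusted p = 0.000137, edgeR) and from 0.53 to -0.17 at 6 months with the length trend removed (-0.24 at 4 weeks by exon unions), Atp5k to -0.0275 at 7 weeks and Cox6c to -0.0183 at 6 months. Cox8a went to 0.23 at 6 months with total counts alone. Among the 376 pairs of gene and comparison named or called, leaving out 1 library kept the side of the threshold in 1508 refits. It ended a call in 63 and added a call in 5. The cause of these changes was not tested. Libraries were left out of groups of 5 or fewer, besides the later additions named below, so not every pair was refitted. Wild-type oocytes at 6 months against 4 weeks had no such refit. Between cell types at 6 months, only knockout oocyte libraries were left out (86 calls in each of 4 refits). These lie outside that contrast, so those refits say little about it.

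Leaving out 1 library of a group of 5 or fewer gave 0 to 3 calls for knockout against wild type in oocytes at 7 weeks, 0 to 4 in wild-type oocytes at 7 weeks against 4 weeks, 14 to 23 at 6 months against 7 weeks, 3 to 10 in knockout oocytes at 6 months against 7 weeks, 0 to 3 against 4 weeks, 9 to 14 in knockout granulosa cells at 6 months against 7 weeks, and 79 to 81 between cell types at 7 weeks. As alternatives added after seeing the data, granulosa cells without wild-type library 6 of 4 weeks gave 1 call for the knockout and 4 for 6 months against 4 weeks, and knockout oocytes without the unnumbered 7-week library gave 10 for 6 months against 7 weeks.

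With the sample number as a replicate block, the paired oocyte comparison at 7 weeks had 0 calls. Elsewhere the numbers did not pair the libraries, with lowest correlations of -0.510 to -0.00622. The block there gave 0 in place of 11 in wild-type granulosa cells at 6 months against 4 weeks, 9 in place of 14 and 0 in place of 8 in knockout granulosa cells and oocytes at 6 months against 7 weeks, and 4 in place of 21 in wild-type oocytes. All block fits kept only libraries whose number occurs in both groups. The shared numbers were 7 in that wild-type granulosa contrast, 3 in the knockout oocyte contrast and 5 in the wild-type oocyte contrast. The block and the loss of libraries cannot be told apart in these counts. In simulated counts, 2-fold changes were recovered in 24.2% of cases in the granulosa 4-week design and 21.4% in the oocyte 6-month design, so changes of that size could be missed at these depths and numbers of libraries.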
